A study of Caenorhabditis elegans with 10 samples.

Results

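The 9 genes described here code for the thick filament of *C. elegans* muscle: the myosin heavy chains *unc-54*, *myo-1*, *myo-2*, *myo-3* and *myo-5*, the paramyosin *unc-15*, and the myosin light chains *mlc-1*, *mlc-2* and *mlc-3*. They were taken by name from 2 tables of normalized transcript counts, with the transcripts of each gene summed. They are 9 of 46739 genes in the L4 table and 9 of 15355 in the L2 table, and all 9 passed the filter on low values (a mean of at least 10) at both stages. The series asked how mutations in *sftb-1*, the ortholog of the human splicing factor gene *SF3B1*, change the transcriptome of whole worms. All worms were grown at 20 °C, for 41 h to the L4 stage or 23 h to the L2 stage, and each group had 2 libraries. The L4 mutants carried the substitution K718E as the alleles *cer3* (replicate 1) or *cer7* (replicate 2), each an edited line of its own, and each was set beside wild-type siblings from its own outcross to N2. At L2, the *cer39* worms carried Q552P, R643C and K718E together, the *cer6* worms were homozygous for a deletion allele, and the wild type was N2. The *cer6* larvae were the non-red progeny of heterozygotes whose wild-type *sftb-1* copy is linked to a red marker. They were sorted by fluorescence, which per the study's methods left some contaminating animals. The wild-type larvae were sorted too and the *cer39* larvae were not, so sorting and the *cer39* genotype cannot be told apart. Per the study, *cer6* homozygotes inherit maternal product. The red marker, a histone fusion driven by *eft-3*, carries the *unc-54* 3'UTR. The libraries of an L2 group were collected as biological replicates.

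A muscle myosin molecule is a pair of heavy chains, each with a motor head and a long coiled-coil rod and each bound by an essential and a regulatory light chain. In nematodes the rods pack around a core of paramyosin to form the thick filament. Body-wall muscle builds its filaments from UNC-54 (myosin heavy chain B), with MYO-3 (heavy chain A) at the filament centre, whereas pharyngeal muscle uses MYO-1 and MYO-2. UNC-15 and the light chains serve both kinds of muscle. *mlc-1* and *mlc-2* code for almost identical regulatory light chains and *mlc-3* for the essential light chain. *myo-5* is a further heavy chain gene of the muscle type.

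On WBcel235, the genome build used by the authors, the genes are dispersed over 4 chromosomes. *unc-54* (WBGene00006789) lies at I:14855901–14863482 on the reverse strand, with a longest transcript of 6204 nt in 9 exons. *unc-15* (WBGene00006754) at I:7376604–7383197 and *myo-1* (WBGene00002348) at I:7258946–7267057 are on the same chromosome and strand. *myo-3* (WBGene00003515) at V:12226817–12234343 and *myo-5* (WBGene00019064) at V:8108970–8118131 share another chromosome, and *mlc-3* (WBGene00003371) lies at III:5565025–5567382. *myo-2* (WBGene00003514) at X:12468061–12475348 shares its chromosome with the regulatory light chains. *mlc-2* (WBGene00003370) at X:17455792–17456586 and *mlc-1* (WBGene00003369) at X:17459210–17460778 are transcribed away from each other across a gap of 2623 nt. As both are close copies in sequence, the division of reads between *mlc-1* and *mlc-2* is uncertain. The longest transcripts have 6104 to 6457 nt for the 5 heavy chains, 3424 nt for *unc-15*, 1155 nt for *mlc-1*, 993 nt for *mlc-3* and 641 nt for *mlc-2*.

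Reads assigned to transcripts, recovered from the normalized counts, numbered 56996610 to 66563408 per L4 library, made from polyadenylated RNA. Per L2 library, made after rRNA depletion, they numbered 45313448 to 76420128. The share of rRNA was 1.44 to 5.63% of these reads at L4, against 20.5 to 29.9% at L2. The mutated gene, *sftb-1*, had normalized counts of 3229 and 3580 in *cer6*, below the 6152 and 7222 of the wild-type L2 libraries (log2 fold change −0.97, adjusted p = 0.00592 from limma). It held 7333 and 6706 in *cer39*, and 13710 and 15045 in K718E beside 14652 and 13787 in the siblings, where the substitutions leave the count no check of the labels. Every marker list used here (body-wall muscle, pharyngeal muscle, intestine, neurons, hypodermis and germ line) had signal at both stages, with 0 of its genes at 0 throughout.

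**Figure D1:**
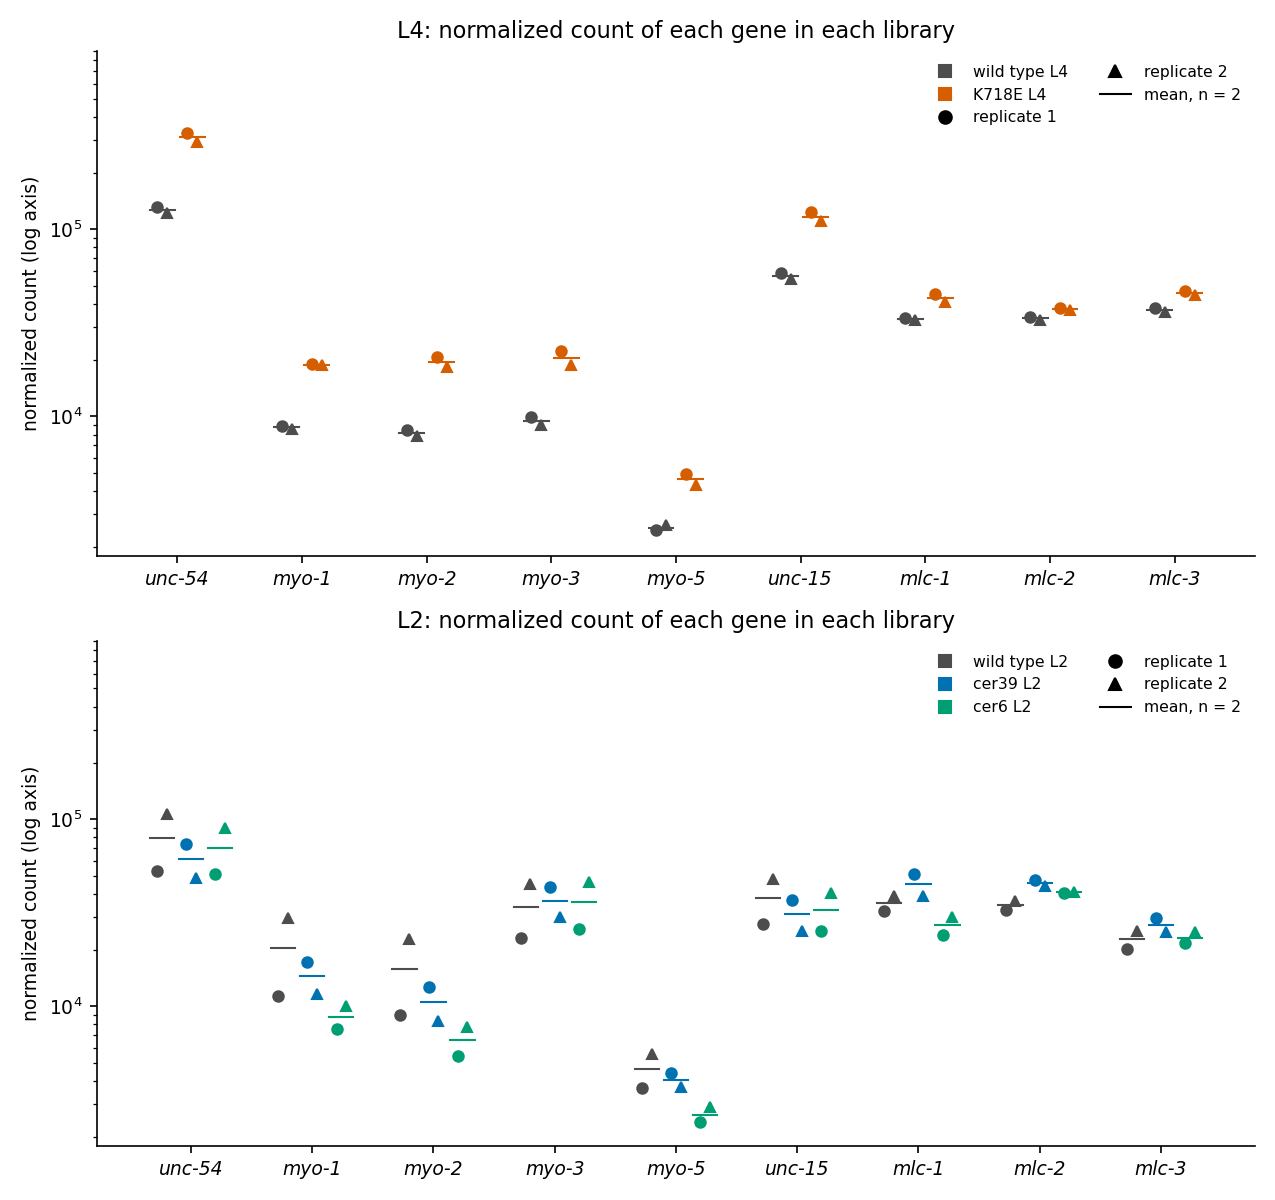
Normalized count (log axis) of the 9 thick filament genes in each L4 library (top) and each L2 library (bottom). Circles are replicate 1, triangles replicate 2 and lines the mean of n = 2, with grey for wild type, orange for K718E, blue for *cer39* and green for *cer6*. At L4 the 2 K718E libraries lie above both wild-type siblings for all 9 genes, and at L2 the 2 wild-type libraries of *unc-54* are as far apart as 52575 and 106428.

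Together the 9 genes took 0.521 and 0.515% of the reads outside rRNA in the L4 wild-type siblings, and 1.10 and 0.957% in K718E. At L2 the share ranged from 0.529 to 0.846% in wild type, from 0.606 to 0.762% in *cer39* and from 0.512 to 0.731% in *cer6*. Per kb of the longest transcript, *mlc-2* had the highest level and *myo-5* the lowest in all 5 groups. The lead of *mlc-2* depends on its annotated length of 641 nt. Undivided, the mean counts in the L4 siblings were 33494 for *mlc-2*, 33224 for *mlc-1* and 37222 for *mlc-3*. In the L4 siblings the mean level per kb was 52253 ± 1292 (SD, n = 2) for *mlc-2*, 37484 ± 1321 for *mlc-3*, 28766 ± 501 for *mlc-1*, 20454 ± 966 for *unc-54* and 16462 ± 749 for *unc-15*. The remaining heavy chains followed at a distance. *myo-3* had 1548 ± 110 per kb, *myo-1* had 1352 ± 25.5, *myo-2* had 1285 ± 73.0 and *myo-5* had 405 ± 17.6 (SD, n = 2). Of the neighbours in this order, only *myo-1* and *myo-2* had overlapping libraries. In wild-type L2 larvae, *unc-54* had 12815 ± 6138 per kb and *unc-15* had 11059 ± 4249 (SD, n = 2), with overlapping libraries, and so did *myo-3*, *myo-1* and *myo-2* in turn, at 5580 ± 2525, 3165 ± 2000 and 2509 ± 1544 per kb.

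The first comparison asked what the single substitution K718E changes at L4. The 5 heavy chain genes and paramyosin rose in K718E, by 1.81- to 2.44-fold. The 3 light chain genes did not pass limma, at 1.12- to 1.30-fold. In all 9 genes both K718E libraries lay above both siblings. Limma called 6 of the 9 higher and none lower, against 0.391% of all 15840 genes tested called higher. The 9 genes were chosen with earlier results of these data known, so this contrast is descriptive. An unadjusted p under 0.05 was found for 8 of the 9, and for 3221 of all genes in either direction. Of all genes, 25.4% had both K718E libraries above both siblings. The median log2 fold change was 1.05 over the 9 genes and −0.01 over all genes. In RNA of whole worms, more cells of a type and more RNA per cell cannot be told apart.

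*unc-54*, the main heavy chain of body-wall muscle, had normalized counts of 131138 and 122659 in the siblings and of 329126 and 291265 in K718E. Both mutant libraries were more than double either sibling, and limma gave 1.29 on the log2 scale (SE 0.105, adjusted p = 0.00144). *myo-3*, the heavy chain of the filament centre, went from 9921 and 8974 to 22381 and 18724. Here the change was 1.12 on that scale (SE 0.107, adjusted p = 0.00341). *unc-54* stood at rank 14 and *myo-3* at rank 22 by p among all genes tested.

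The pharyngeal heavy chains rose by a similar amount. *myo-2* had 8468 and 7814 in the siblings and 20786 and 18422 in K718E, or 1.27 on the log2 scale (limma, SE 0.0945, adjusted p = 9.3e-04). *myo-1* had 8847 and 8615 in the siblings and 18973 and 18902 in K718E, or 1.12 (SE 0.0799, adjusted p = 8.9e-04). The K718E libraries of *myo-1* were within 1.00-fold of each other, the closest pair of any member at L4. *myo-5* showed the smallest rise of the heavy chains, from 2471 and 2628 to 4934 and 4290, or 0.85 (SE 0.102, adjusted p = 0.0118).

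*unc-15*, the paramyosin gene, went from 58179 and 54553 to 123255 and 110712, or 1.05 on the log2 scale (limma, SE 0.0956, adjusted p = 0.0027). The light chains were higher in K718E too, by less. *mlc-1* had 33634 and 32815 in the siblings and 45337 and 41080 in K718E, or 0.38 with a 95% interval from 0.18 to 0.58 (adjusted p = 0.124). *mlc-3*, the essential light chain gene, had 38149 and 36295 against 46852 and 44306, at 0.29 (95% interval 0.10 to 0.49, adjusted p = 0.143). *mlc-2* had 34080 and 32909 against 38015 and 37203, at 0.17 (95% interval −0.02 to 0.35, adjusted p = 0.287). None of these intervals reached that of *myo-5*, which ran from 0.62 to 1.09, although the difference between heavy and light chains was not tested. DESeq2 called *mlc-1* (adjusted p = 0.00136) and *mlc-3* (adjusted p = 0.011) higher, where it called 467 of 15840 genes higher. With the replicate number as a block, which pairs each mutant with the sibling of its outcross, *mlc-1* passed as well (adjusted p = 0.0363), where 2.92% of all genes were called higher. Without K718E replicate 2, a fit in which the lone mutant library is assumed to vary like the siblings, *mlc-1* (adjusted p = 0.00246) and *mlc-3* (adjusted p = 0.0341) passed, where 15.8% of all genes were called higher.

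**Figure D2:**
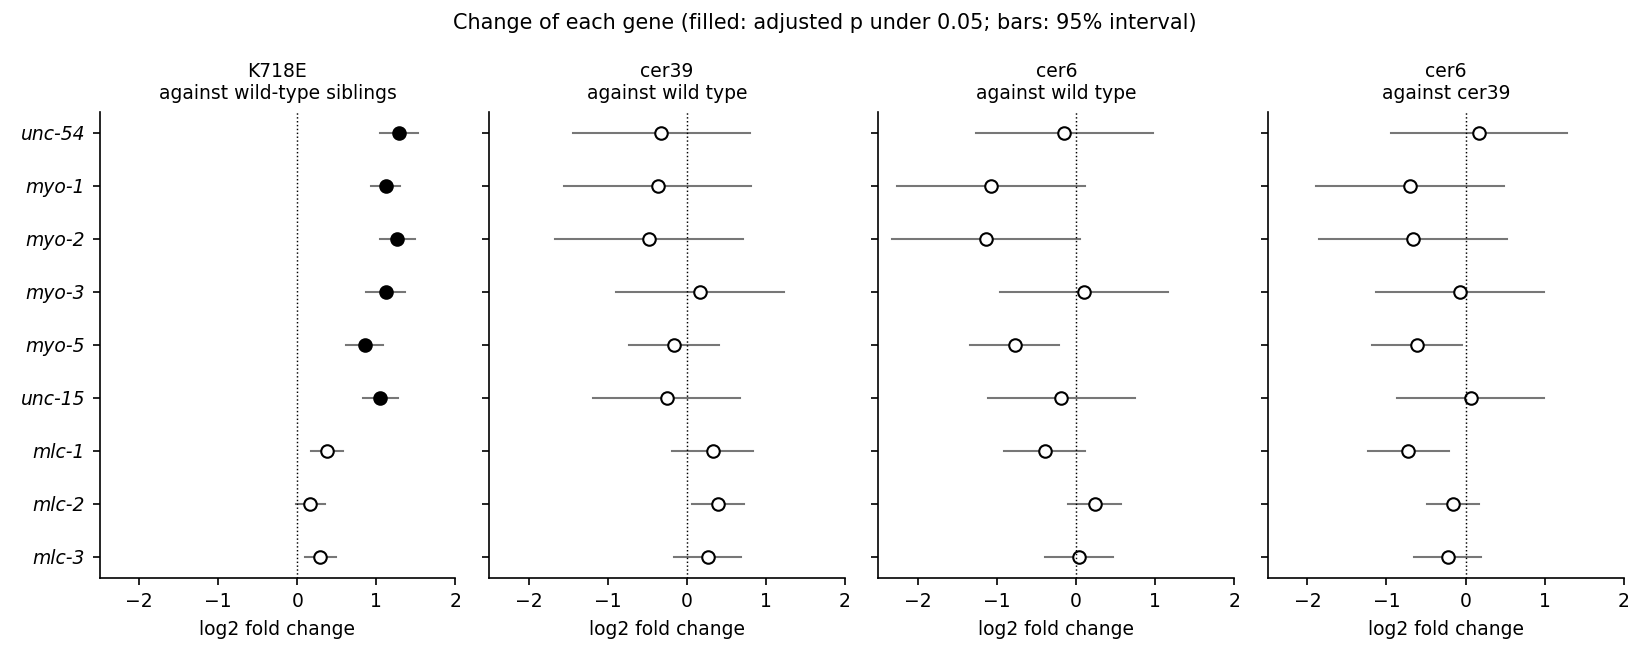
Log2 fold change of the 9 genes in the 4 comparisons (x axis), with bars for the 95% interval from limma and filled circles for an adjusted p under 0.05, n = 2 libraries per group. In K718E the 6 filled circles are the heavy chains and *unc-15*, between 0.85 and 1.29, and no circle is filled in the L2 comparisons, where the bars of the heavy chains are wide.

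The size of the change in K718E moved with transcript length across all genes. The median log2 fold change was −0.06 for 5056 genes with a longest transcript under 1000 nt, 0.02 for 3133 genes of 2000 to 4000 nt and 0.21 for 202 genes of 6000 nt and over. Of these 202 long genes, 24 were called higher, which include the 5 heavy chains, and 68.8% had both mutant libraries above both siblings. By log2 fold change the heavy chains held ranks 12 (*unc-54*), 14 (*myo-2*), 18 (*myo-3*), 19 (*myo-1*) and 26 (*myo-5*) within this class. *unc-15* stood at rank 22 of 3133 in its length class, and the light chains stood above the medians of theirs. With the length trend removed in each library, a step added after seeing the data, the same 6 genes passed, with *unc-54* at 1.11 and *myo-5* at 0.67 on the log2 scale. The part of transcript length in the rise was otherwise not tested.

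Of 12 structural and assembly partners of the thick filament, 3 rose and none fell, with a median log2 fold change of 0.34. They were the giant kinases *unc-22* (twitchin, 1.98, adjusted p = 5.4e-05 from limma) and *unc-89* (obscurin, 1.76, adjusted p = 9.6e-05) and the titin-like *ttn-1* (1.89, adjusted p = 0.00254). Of 23 thin filament genes, 3 rose and none fell, with a median of 0.33. They were the troponin genes *tnt-4* (0.93, adjusted p = 0.0069), *tni-3* (0.91, adjusted p = 0.00429) and *unc-27* (0.57, adjusted p = 0.0271). Of 14 non-muscle and unconventional myosin genes tested, limma and edgeR called 0, with 4 at an unadjusted p under 0.05 and a median of 0.04. Of 8 transcription factors of muscle, both tools called 0, with 5 at an unadjusted p under 0.05 and a median of 0.33.

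Some markers of muscle were higher in K718E as well. The summed normalized count of the 9 body-wall markers was 175840 to 183115 in the siblings and 222119 to 232904 in K718E, and 3 of the 9 rose, namely *pat-2* (an alpha integrin, log2 fold change 0.77), *deb-1* (vinculin, 0.59) and *unc-27*. The other 6 did not pass, at 0.07 to 0.56 on the log2 scale. The 4 pharyngeal markers summed to 5430 to 5547 in the siblings and 7416 to 7861 in K718E, and 1 of them rose (*tnt-4*), while the other 3 did not pass, at 0.19 to 0.96. Of 8 neuronal markers 1 rose, *egl-3*, a proprotein convertase (0.55, adjusted p = 0.0422 from limma). Among the other lists, limma and edgeR called 0 of 8 intestinal, 0 of 7 hypodermal and 0 of 7 germ line markers, of which 1, 0 and 0 had an unadjusted p under 0.05. Their medians were 0.07, 0.19 and −0.04. The part of the amount of muscle in the rise of the myosins was not tested.

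Within the single genes, transcripts were tested on their own. No transcript of the 9 genes passed limma or edgeR in K718E, where 0.00888% of 22521 transcripts were called higher, although 12 had an unadjusted p under 0.05. Most *unc-54* reads at L4 were assigned to F11C3.3.3, with 120939 and 116447 in the siblings and 313071 and 290490 in K718E (log2 fold change 1.35, adjusted p = 0.0618 from limma). F11C3.3.2 took 10199 and 6212 in the siblings but 16055 and 775 in K718E, so its libraries of 1 group differed more than the groups. The 2 transcripts of *myo-1* did not move together. R06C7.10.2 went from 5912 and 6911 to 17648 and 17174 (1.45, adjusted p = 0.0892), whereas R06C7.10.1 had 2936 and 1703 in the siblings and 1324 and 1727 in K718E (−0.56, adjusted p = 0.473). Of the paramyosin forms, F07A5.7a.1 carried 64.5 and 68.1% of *unc-15* in the siblings and 69.7 and 70.5% in K718E. Transcripts of a gene share nearly all of their sequence, so the division of reads between them is an estimate.

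At L2 the replicates of a group were far apart for the heavy chains, and this spread bears on all 3 L2 comparisons. Between the 2 wild-type L2 libraries, replicate 2 held 2.62 times as much *myo-1* as replicate 1, 2.54 times as much *myo-2*, 2.02 times as much *unc-54*, 1.94 times as much *myo-3*, 1.75 times as much *unc-15* and 1.51 times as much *myo-5*. The light chains differed by only 1.12- to 1.25-fold between the same libraries. At L4, no member differed by more than 1.11-fold between the siblings or by more than 1.20-fold between the K718E libraries. In *cer39* replicate 1 was the higher library for all 9 genes, by 1.51-fold for *unc-54* and 1.08-fold for *mlc-2*. In *cer6* replicate 2 was the higher one for all 9 genes, by 1.79-fold for *myo-3* and 1.01-fold for *mlc-2*.

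This spread also moved with transcript length. Between the wild-type L2 libraries, the median log2 difference of replicate 2 from replicate 1 was −0.11 for genes under 1000 nt and 0.40 for the 203 genes of 6000 nt and over. In *cer6* the same medians were −0.15 and 0.33, and in *cer39* they were 0.02 and −0.21. For *myo-2* the difference of replicate 2 from replicate 1 was 1.35 on the log2 scale in wild type at L2. At L4 it was −0.12 in the siblings and −0.17 in K718E.

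**Figure D3:**
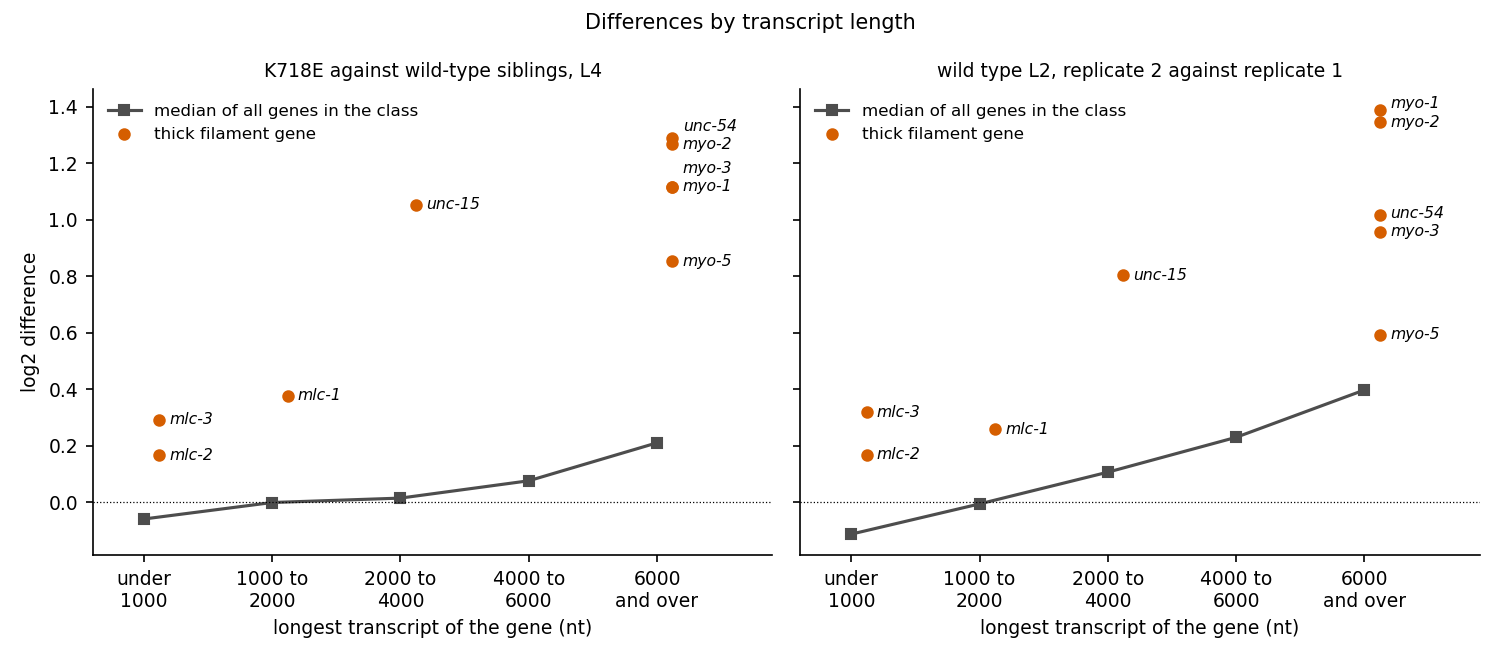
Log2 difference (y axis) by length class of the longest transcript (x axis), for K718E against its siblings at L4 (left) and for replicate 2 against replicate 1 of wild type at L2 (right). Grey squares are medians over all genes of a class and orange points the 9 genes. Both medians go from below 0 for short genes (−0.06 and −0.11) to above 0 for genes of 6000 nt and over (0.21 and 0.40), and the heavy chains lie above them in both panels.

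The triple substitution *cer39* was compared with wild type at L2. None of the 9 genes passed limma, against 4.12% of 15011 genes called higher and 3.04% called lower. At an unadjusted p under 0.05 there was 1 gene, *mlc-2*. EdgeR called none with either scaling, and DESeq2 called *mlc-2* higher (adjusted p = 0.0378 from DESeq2), where it called 8.69% of all genes higher. Only the regulatory light chains *mlc-1* and *mlc-2* had both *cer39* libraries above both wild-type libraries, as did 32.6% of all genes, and the other 7 overlapped.

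*mlc-2* had 32646 and 36683 in wild type and 47285 and 43727 in *cer39*, a log2 fold change of 0.39 with a 95% interval from 0.06 to 0.72 (adjusted p = 0.126 from limma). Genes under 1000 nt, the class of *mlc-2*, had a median log2 fold change of 0.20 in this comparison. In this class 46.0% of genes had both *cer39* libraries above both wild-type libraries, and *mlc-2* stood at rank 1604 of 4627 by log2 fold change. With the length trend removed, *mlc-2* stood at 0.20 (adjusted p = 0.417 from limma). *mlc-1* had 32370 and 38744 against 50969 and 38855, at 0.33 (95% interval −0.18 to 0.84). The second *cer39* library of *mlc-1* was thus barely above the higher wild-type library. *mlc-3* had 20292 and 25313 against 29717 and 24941, which overlap (0.26, 95% interval −0.16 to 0.69).

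The heavy chains and paramyosin gave no call in *cer39*, with wide intervals. Genes of 6000 nt and over had a median log2 fold change of −0.48 in this comparison. The heavy chains lay above that median, at ranks 14 (*myo-3*) to 99 (*myo-2*) of 203 in the class. *unc-15* lay below the median of its class of 2000 to 4000 nt, which was −0.18. *unc-54* had 52575 and 106428 in wild type and 73626 and 48761 in *cer39* (log2 fold change −0.32, 95% interval −1.44 to 0.80). Changes from a fall to 0.369-fold up to a rise of 1.74-fold lay within this interval. *unc-15* had 27578 and 48153 against 37121 and 25201 (−0.25, 95% interval −1.18 to 0.67), and *myo-3* had 23165 and 44959 against 43277 and 30183 (0.16, 95% interval −0.90 to 1.23). Both overlapped between the groups. The pharyngeal *myo-1* had 11302 and 29565 against 17300 and 11601 (−0.37), and *myo-2* had 8978 and 22812 against 12672 and 8392 (−0.47). *myo-5* had 3675 and 5542 against 4410 and 3684 (−0.16). The signs of these 6 values depended on single libraries. Without wild-type replicate 2, *unc-54* stood at 0.19, *myo-1* at 0.33, *myo-2* at 0.20, *myo-5* at 0.13 and *unc-15* at 0.15, and without *cer39* replicate 2 *unc-15* stood at 0.03. *myo-3* stood at −0.31 without wild-type replicate 1 and at −0.10 without *cer39* replicate 1.

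Calls among partner genes in *cer39* stand beside 4.12% of all genes called higher and 3.04% called lower by limma. The troponin I gene *tni-1* rose (log2 fold change 0.82, adjusted p = 0.0198 from limma) and the troponin T gene *tnt-3* fell (−1.23, adjusted p = 0.0288), which makes 1 up and 1 down of 23 thin filament genes. Limma and edgeR called 0 of 12 thick filament partners, with 2 at an unadjusted p under 0.05. They called 0 of 9 body-wall and 0 of 4 pharyngeal markers as well, with 3 and 0 at an unadjusted p under 0.05. The body-wall markers summed to 122766 to 138262 in wild type and 136239 to 157900 in *cer39*. The pharyngeal markers summed to 6563 to 9861 and 9392 to 11125, so both marker sums overlapped. Limma and edgeR also called 0 of 15 other myosins, 0 of 7 muscle regulators and 0 of 8 intestinal, 0 of 8 neuronal and 0 of 7 hypodermal markers, of which 3, 1, 0, 1 and 0 had an unadjusted p under 0.05. Of 7 germ line markers 1 fell, *syp-1* of the synaptonemal complex (−1.10, adjusted p = 0.0289 from limma). All 7 had an unadjusted p under 0.05, and the list had a median log2 fold change of −1.04 and a summed count of 6085 to 7633 in *cer39* against 11576 to 17689 in wild type. The part of the germ line in the values of the thick filament genes was not tested. The median log2 fold change was −0.16 over the 9 thick filament genes and 0.01 over all genes.

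The deletion *cer6* was compared with the same wild-type libraries. None of the 9 genes passed limma here either, where 13.8% of 15011 genes were called higher and 13.8% lower. At an unadjusted p under 0.05 there was 1 gene, *myo-5*, and edgeR called none with either scaling. DESeq2 called *myo-1*, *myo-2* and *myo-5* lower, where it called 16.8% of all genes lower. These 3 and *mlc-1* had both *cer6* libraries below both wild-type libraries, as did 32.7% of all genes. *mlc-2* had both above, as did 31.1% of all genes, and the other 4 overlapped.

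*myo-2* had 8978 and 22812 in wild type and 5406 and 7788 in *cer6*, a log2 fold change of −1.14 with a 95% interval from −2.33 to 0.05 (adjusted p = 0.134 from limma). *myo-1* had 11302 and 29565 against 7527 and 10016, at −1.07 (95% interval −2.26 to 0.11, adjusted p = 0.153). For both pharyngeal heavy chains, most of the difference lay in the high wild-type replicate 2. *myo-5* had 3675 and 5542 against 2396 and 2886, at −0.78 (95% interval −1.35 to −0.21, adjusted p = 0.0553). Without wild-type replicate 1, these 3 genes passed at −1.81, −1.77 and −1.08 (adjusted p = 0.0174, 0.015 and 0.0156 from limma), where 12.9% of all genes were called lower. Without wild-type replicate 2, the values were −0.47, −0.38 and −0.48 and none of them passed.

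The body-wall heavy chains overlapped between *cer6* and wild type. *unc-54* had 52575 and 106428 in wild type and 50796 and 89462 in *cer6* (log2 fold change −0.15, 95% interval −1.27 to 0.97). It stood at 0.36 without wild-type replicate 2 and at 0.26 without *cer6* replicate 1. *myo-3* had 25814 and 46175 in *cer6* (0.10, 95% interval −0.97 to 1.16) and *unc-15* had 25397 and 40282 (−0.19, 95% interval −1.11 to 0.74). The sign of *myo-3* turned without wild-type replicate 1 (−0.38) or *cer6* replicate 2 (−0.32), and that of *unc-15* without wild-type replicate 2 (0.21) or *cer6* replicate 1 (0.14). Among the light chains, *mlc-1* had 24046 and 30110 (−0.40, 95% interval −0.91 to 0.12), *mlc-2* had 40552 and 40828 (0.23, 95% interval −0.10 to 0.56) and *mlc-3* had 21786 and 24816 (0.04, 95% interval −0.39 to 0.46). The *mlc-3* value was −0.12 without wild-type replicate 1 and −0.06 without *cer6* replicate 2.

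Of the 23 thin filament genes, 2 fell in *cer6* against wild type, *tnt-3* (log2 fold change −1.47, adjusted p = 0.0058 from limma) and the pharyngeal *tnt-4* (−1.05, adjusted p = 0.0294). Of 12 thick filament partners 1 fell, *ufd-2*, a ubiquitin ligase of the myosin chaperone pathway (−0.36, adjusted p = 0.045), and edgeR called 0 of them. Of 15 other myosins 3 fell, *mlc-6*, *hum-8* and *hum-9*, at −0.85, −0.54 and −0.68 (adjusted p = 0.0209, 0.0327 and 0.0134 from limma), and edgeR called 2. Of 7 muscle regulators 1 fell, the T-box factor *tbx-2* of the pharynx (−0.61, adjusted p = 0.0481), and edgeR called 0. The pharyngeal markers summed to 4537 to 4953 in *cer6*, below the 6563 to 9861 of wild type, and 1 of 4 fell (*tnt-4*). The body-wall markers summed to 104000 to 124897, which overlapped the wild-type range, and 0 of 9 passed limma or edgeR, with 1 at an unadjusted p under 0.05. Outside muscle, 1 of 8 intestinal markers fell (*vha-6*, −1.10), 1 of 8 neuronal markers rose (*egl-3*, 0.72) and 3 of 7 germ line markers fell (*him-3*, *htp-3* and *pgl-1*, at −0.85, −0.87 and −0.72) by limma. EdgeR called 2 of these 7. Limma and edgeR called 0 of 7 hypodermal markers, with 0 at an unadjusted p under 0.05. The median log2 fold change was −0.19 over the 9 thick filament genes and −0.01 over all genes.

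Set directly against *cer39*, *cer6* differed in sorting as well as in genotype. None of the 9 genes passed limma, where 9.11% of all genes were called higher and 10.5% lower. At an unadjusted p under 0.05 there were 2 genes, *mlc-1* and *myo-5*. EdgeR called none with either scaling, and DESeq2 called *mlc-1* lower, where it called 13.7% of all genes lower. In 6 of the 9 genes both *cer6* libraries lay below both *cer39* libraries, as in 33.6% of all genes, and *unc-54*, *myo-3* and *unc-15* overlapped.

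*mlc-1* had 50969 and 38855 in *cer39* and 24046 and 30110 in *cer6*, a log2 fold change of −0.73 (95% interval −1.24 to −0.21, adjusted p = 0.0617 from limma). *myo-5* had 4410 and 3684 against 2396 and 2886, at −0.62 (95% interval −1.18 to −0.05, adjusted p = 0.117). In a fit of only the 4 libraries compared, *myo-5* passed (adjusted p = 0.0385), where 13.1% of all genes were called lower, and it passed too with either wild-type library left out of the common fit (adjusted p = 0.0385 and 0.0392). *myo-1* and *myo-2* stood at −0.71 (95% interval −1.89 to 0.48) and −0.67 (95% interval −1.86 to 0.52), *mlc-2* at −0.16 and *mlc-3* at −0.23. *unc-54*, *unc-15* and *myo-3* stood at 0.17, 0.06 and −0.07, and each of them turned sign when single mutant libraries were left out. Without *cer39* replicate 2 or *cer6* replicate 2, *unc-54* stood at −0.13 and −0.24 and *unc-15* at −0.21 and −0.27. Without *cer39* replicate 1 or *cer6* replicate 1, *myo-3* stood at 0.19 and 0.35. Among genes of 6000 nt and over, the median was 0.39, and the heavy chains stood at ranks 157 to 197 of 203 by log2 fold change in this class.

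Pharyngeal thin filament genes were lower in *cer6* than in *cer39*. Of the 4 pharyngeal markers 3 fell, *tnt-4* (troponin T, log2 fold change −1.28, adjusted p = 0.0233 from limma), *tni-4* (troponin I, −1.05, adjusted p = 0.0204) and *tnc-2* (troponin C, −0.99, adjusted p = 0.0313), and their list sums did not overlap (4537 to 4953 against 9392 to 11125). With *tni-1* (−0.65, adjusted p = 0.0145) they made up the 4 of 23 thin filament genes that fell. Of the 9 body-wall markers 1 fell, *unc-112* (kindlin, −0.64, adjusted p = 0.0177), and of the thick filament partners 1 fell, *unc-98* (−0.53, adjusted p = 0.0311). Of 15 other myosins, the non-muscle heavy chains *nmy-1* and *nmy-2* rose (0.60 and 0.61) and *hum-9* fell (−0.87). Neuronal *egl-3* (0.63) and the germ line genes *gld-1* (1.12) and *syp-1* (0.88) rose, 1 of 8 and 2 of 7 markers by limma, where edgeR called 2 of 8 and 2 of 7. Limma and edgeR called 0 of 7 muscle regulators, 0 of 8 intestinal and 0 of 7 hypodermal markers, with 0, 3 and 1 at an unadjusted p under 0.05. The median log2 fold change was −0.23 over the 9 thick filament genes and 0.02 over all genes. The part of pharyngeal tissue in the lower pharyngeal myosins was not tested.

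Ratios between members within a library do not depend on its scaling. Those of members that differ in length, such as light to heavy chains, can still move with the length trends given above. All ratios are given as values, since with 2 libraries against 2 an exact two-sided permutation test cannot go below p = 0.333. How often ratios of other genes set the groups apart was not tested. Per kb, the 2 pharyngeal heavy chains made up 20.5 and 25.02% of the sum of *unc-54*, *myo-3*, *myo-1* and *myo-2* in wild-type L2 larvae, 19.8 and 19.6% in *cer39*, but 14.0 and 11.2% in *cer6*. The *cer6* libraries were below all other L2 libraries. At L4 the share was 10.6 and 10.8% in the siblings and 9.88 and 10.4% in K718E. The ratio of *myo-2* to *myo-1* varied little, between 0.732 and 0.810 over the 6 L2 libraries and between 0.925 and 1.12 over the 4 L4 libraries.

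For the body-wall heavy chains, *myo-3* per *unc-54* in RNA of whole worms was 0.448 and 0.429 in wild-type L2 larvae. The ratio was 0.597 and 0.629 for *cer39*, and 0.517 and 0.525 for *cer6*. Both mutants were above wild type without overlap, a separation that was not tested. At L4 the ratio was 0.0769 and 0.0744 in the siblings and 0.0691 and 0.0653 in K718E. The summed level of the 3 light chains per summed level of the 5 heavy chains was 4.67 and 4.80 in the L4 siblings and 2.29 and 2.45 in K718E. At L2, wild type had 6.20 and 3.46, *cer39* had 6.07 and 7.69, and *cer6* had 7.16 and 4.55, with overlapping groups. Paramyosin per heavy chain sum was 0.657 and 0.658 in the siblings, 0.565 and 0.572 in K718E, and between 0.419 and 0.503 at L2. *mlc-1* per *mlc-2* was lowest in *cer6*, at 0.329 and 0.409, against 0.550 and 0.586 in wild type and 0.598 and 0.493 in *cer39*. The stages differ in library type and were normalized apart, so L4 and L2 values stand side by side without a comparison.

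**Figure D4:**
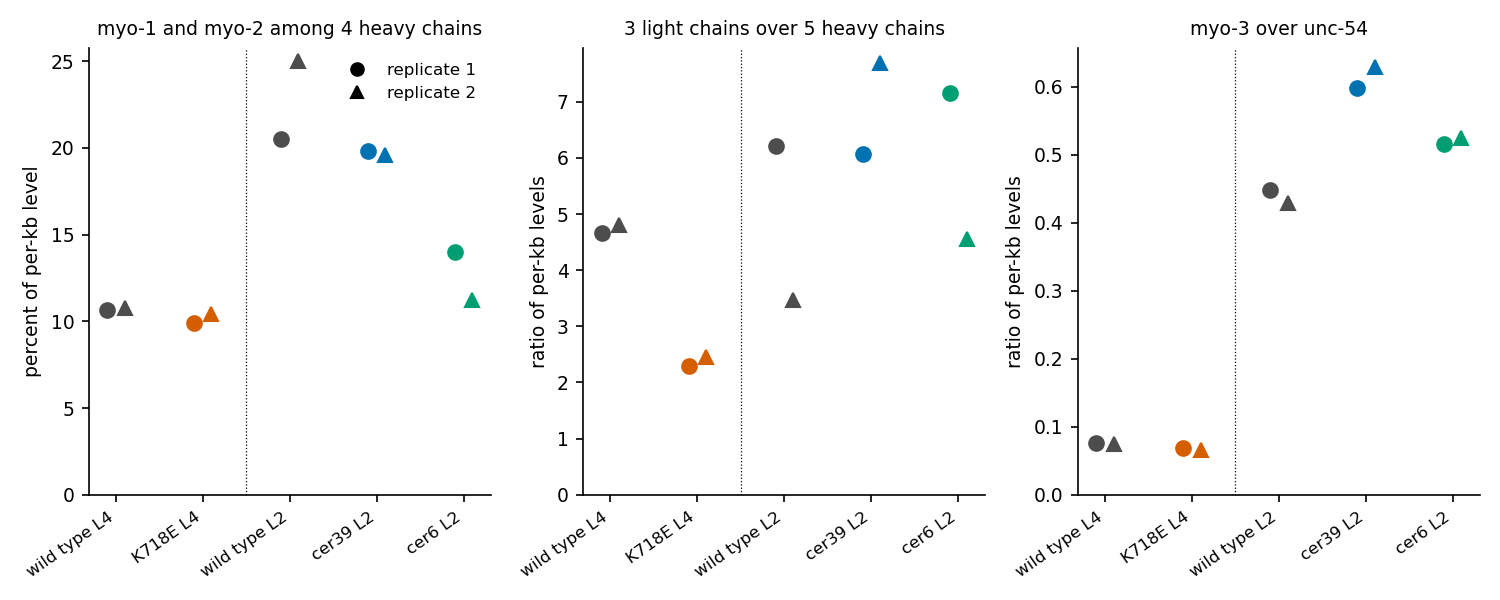
Ratios of per-kb levels within each library, for the 5 groups on the x axis (circles replicate 1, triangles replicate 2, dotted line between the stages). The share of *myo-1* and *myo-2* among 4 heavy chains (left) is 11.2 to 14.0% in *cer6* and 19.6 to 25.02% in the other L2 libraries, the light chain to heavy chain ratio (middle) is 2.29 to 2.45 in K718E and 4.67 to 4.80 in its siblings, and *myo-3* over *unc-54* (right) is highest in *cer39* among the L2 groups.

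A single member transcript passed at L2. The *unc-15* form F07A5.7b.3 was at 0 in both *cer39* libraries, while wild type had 234 and 208 normalized counts of it and *cer6* had 267 and 474. This 0 is an estimate of how reads divide among nearly identical forms and sets no bound on a fold change. Such an estimate was also 0 for the *unc-54* form F11C3.3.1 in all 4 L4 libraries, while it held 77.5 to 95.2% of *unc-54* at L2. The L2 values list 2 *unc-54* and 4 *unc-15* forms, against 3 and 8 at L4. F11C3.3.3, the main *unc-54* form at L4, is not among those listed at L2. L2 gene sums and shares thus cover only the listed forms. For F07A5.7b.3 in *cer39*, the adjusted p was 0.0169 from limma and 0.059 from edgeR against wild type, where limma called 0.381% of 22811 transcripts lower. For *cer6* against *cer39* it was 0.0108 from limma and 0.0264 from edgeR, where limma called 3.6% higher. This form is a minor one, and *unc-15* as a gene overlapped in all L2 comparisons. Its main form at L2, F07A5.7a.3, made up 70.1 and 67.7% of the gene in the wild-type libraries, 74.1 and 77.4% for *cer39*, and 67.4 and 66.6% for *cer6*. For *unc-54*, wild type had 4622 and 23955 of F11C3.3.2, *cer39* had 15343 and 2351, and *cer6* had 2495 and 13597, so that the replicates of each group differed more than the groups. The 3 forms of *mlc-3* and the 2 of *myo-1* gave no call in any L2 comparison.

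Over all 10 libraries, centred within each stage, the gene pattern most like that of *unc-54* among 10117 genes was that of *unc-15* (root mean square difference 0.101 on the log2 scale). It was followed by the type IV collagen genes *let-2* (0.109) and *emb-9* (0.127), by *T23E7.2* (0.154) and by *myo-3* (0.165). In K718E, *let-2*, *emb-9* and *T23E7.2* had log2 fold changes of 1.04, 0.96 and 0.89. The pattern nearest to *myo-2* was that of *myo-1* (0.0765), followed by *C09F12.2* (0.22), *myo-5* (0.268), *ZC449.5* (0.273) and *F47B7.7* (0.288). In *cer6* against wild type, *C09F12.2*, *ZC449.5* and *F47B7.7* had log2 fold changes of −0.92, −0.75 and −1.13. As neighbours were picked over these same libraries, fold changes near those of *unc-54* and *myo-2* follow from the choice. *myo-1* and *myo-2* stood only at ranks 102 and 98 from *unc-54*. The light chains were farther still, with *mlc-3* at rank 430, *mlc-1* at 751 and *mlc-2* at 1788.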

How the data were processed

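RNA-seq libraries of whole worms (10 libraries, 2 per group) were analysed from 2 deposited tables. Per the labels and the study's methods, the authors aligned reads with STAR to WBcel235, counted transcripts with RSEM and normalized with DESeq2 with versions not given in the sources used here. Deposited signal values are thus normalized counts per transcript, in which 100% of values above 0 lay within 0.1 of a whole number of reads, so reads were recovered. The L2 table lost 1 row with shifted cells. Deposited comparison and splicing tables of the authors hold fold changes, p-values and inclusion levels and were not used.

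After summing transcripts per gene, limma 3.58.1 (trended variance, R 4.3.3) was fitted to log2(value + 1) of every gene averaging 10 or more, with Benjamini-Hochberg adjustment over all genes and a threshold of 0.05. Fold changes are on this scale, which understates the change of low genes. L4 was fitted alone and the 3 L2 groups together. Alternatives were edgeR 4.0.16, DESeq2 1.42.0, other pseudocounts and filters, a replicate block, and fits without single libraries. Transcript lengths come from the Ensembl annotation of WBcel235 and were found for 15746 of 15840 genes at L4 and 14956 of 15011 at L2. The replicate numbers pair the L4 libraries, since the labels give the outcross of each sibling. Replicate differences correlated at −0.104 across genes between the L4 groups.

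The members and the 10 lists of other genes were chosen with earlier results of these data known. Named genes are the members, up to 4 per list with the smallest adjusted p, the 5 genes with a mean of at least 100 nearest in pattern to *unc-54* and to *myo-2*, and *sftb-1*. Python 3.11.15 with pandas 2.3.3 did the other steps, and the fits were checked on simulated data.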

Additional observations from a re-analysis of the deposited data

How the results depend on the processing

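In K718E the 6 genes past the threshold were 6 under the other pseudocounts, filters and edgeR scalings and with the length trend removed, 7 with the replicate block, 8 with DESeq2, and 6 to 8 when single libraries were left out. All genes past the threshold numbered 63 in K718E, 40 with no filter, 625 with the block, 881 with DESeq2 and 82 to 5173 without single libraries. Crossing the L4 pairs, an alternative added after seeing the data, gave 217 genes and 6 members.

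At L2, where 0 members passed in each comparison, DESeq2 called 1 in *cer39*, 3 in *cer6* and 1 in *cer6* against *cer39*. Leaving out single libraries gave 0 in *cer39*, 0 to 3 in *cer6* and 0 to 1 in *cer6* against *cer39*. Fits of only the 4 libraries compared gave 1 in *cer6* against *cer39*. With the length trend removed, 1 member (*myo-5*) passed in *cer6* against wild type, where 2317 of 14956 genes were called lower. Only *myo-5* passed in *cer6* against *cer39* too, where 1598 of 14956 genes were called lower. EdgeR called 0 member transcripts in *cer39*, where limma called 1. L2 samples share only a number (correlations of replicate differences −0.175, 0.12 and 0.0404), and the block changed no member call there. Of all genes, 1074 passed in *cer39*, 536 with the block, 2572 with DESeq2, 410 with only the 4 libraries and 0 to 1244 without single libraries (0 without either *cer39* library). In *cer6* 4142 passed, 2473 with only the 4 libraries and 1891 to 3983 without single libraries. In *cer6* against *cer39* 2946 passed, and 0 without *cer39* replicate 1.

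Signs turned for uncalled values. Without single libraries, *cer39* against wild type ranged from −0.83 to 0.19 for *unc-54*, −1.06 to 0.33 for *myo-1*, −1.15 to 0.20 for *myo-2*, −0.31 to 0.64 for *myo-3*, −0.46 to 0.13 for *myo-5* and −0.65 to 0.15 for *unc-15*. *cer6* against wild type ranged from −0.66 to 0.36 for *unc-54*, −0.38 to 0.58 for *myo-3*, −0.59 to 0.21 for *unc-15* and −0.12 to 0.20 for *mlc-3*. *cer6* against *cer39* ranged from −0.24 to 0.58 for *unc-54*, −0.49 to 0.35 for *myo-3* and −0.27 to 0.40 for *unc-15*. With the length trend removed, *unc-54*, *myo-1* and *myo-5* stood at 0.0445, 0.0069 and 0.21 in *cer39*, *mlc-3* at −0.013 in *cer6*, and *unc-54*, *unc-15* and *mlc-2* at −0.15, −0.13 and 0.0029 in *cer6* against *cer39*. With 2 libraries a group, depth was no limit for these genes, and the spread between replicates set the width of the intervals at L2. The cause of these shifts was not tested.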
